A study of Homo sapiens with 6 samples.

Results

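The replication-dependent histone genes were examined in TCam-2, a widely used cell line from a human seminoma, which is a germ cell tumour of the testis. Members were taken by symbol: every gene named H2AC, H2BC, H3C or H4C followed by a number, or H1-1 to H1-6, without a pseudogene suffix. The rule found 69 of the 62700 genes in the deposited table: 6 linker histone H1 genes, 17 H2A, 18 H2B, 13 H3 and 15 H4 genes. Polyadenylated RNA was sequenced from 3 groups of 2 libraries each. The WT group was not transduced, the GFP group overexpressed FLAG-tagged GFP (GFP_FLAG), and the RBMXL3 group overexpressed FLAG-tagged RBMXL3 (RBMXL3_FLAG), an RNA-binding protein related to RBMX. All groups are the same cell line, and the vector, its promoter and whether cells were cloned are not given in the sources used here. Nothing in the labels says that the libraries of a group came from separate cultures, so p-values measure only the spread between these libraries, which may be technical. The question was whether the histone genes differed when RBMXL3 was overexpressed.

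Replication-dependent histone genes supply the histone proteins that package newly made DNA, and their mRNAs accumulate in S phase. The H2A, H2B, H3 and H4 proteins form the nucleosome core, and H1 binds the linker DNA between nucleosomes. Most of these mRNAs lack a poly(A) tail: their 3' end is cut just after a stem-loop that is bound by SLBP, the stem-loop binding protein. Poly(A)-selected libraries hold such RNA mainly where a histone transcript has been polyadenylated instead, so the levels described here are those of polyadenylated histone RNA and not of all histone mRNA.

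The stem-loop is shown first because it sets which histone transcripts a poly(A) library can hold. In GENCODE 29 (GRCh38), 65 members had an annotation, 53 on chromosome 6, 11 on chromosome 1 and 1 on chromosome 12. The histone stem-loop letters (16 bases: GG, any 3 bases, TTT, any 2, A, any 3, CC), searched on the transcript strand within 100 bases after the stop codon, were found in 28 of the 33 members with at least 21 annotated bases after the stop. Across all genes with such a length the letters were found in 93 of 19408, a share of 0.479%. The examples below belong to members whose values are given further on, with the 16 stem-loop letters in capitals and 5 bases on each side.
H2AC25: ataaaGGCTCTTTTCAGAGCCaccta
H2AC6: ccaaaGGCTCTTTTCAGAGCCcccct
H2BC4: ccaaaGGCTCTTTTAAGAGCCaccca
H2BC5: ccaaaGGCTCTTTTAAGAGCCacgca
H2BC21: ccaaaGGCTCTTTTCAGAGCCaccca
H4C8: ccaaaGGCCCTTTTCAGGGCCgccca
The letters began after 40 bases past the stop codon in H2AC25, 43 in H2AC6, 36 in H2BC4 and H2BC5, 56 in H2BC21 and 41 in H4C8. The annotation continued past the stem-loop, by 390 bases in H2AC25 and 1729 in H2BC21. In 20 of the 28 genes at least 1 transcript was annotated more than 300 bases beyond it. Another 32 members, H1-2 and H2BC12 among them, were annotated to fewer than 21 bases past the stop, so no stem-loop could be read for them.

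**Figure D1:**
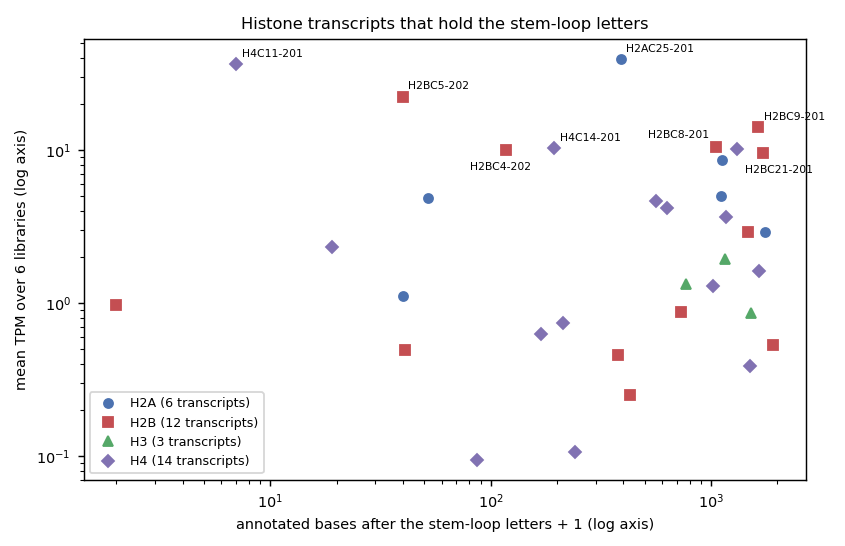
Annotated length after the stem-loop letters (x axis, bases + 1, log scale) against mean TPM over the 6 libraries (y axis, log scale) for the 35 histone transcripts above 0 TPM that hold the letters, with symbols for the H2A, H2B, H3 and H4 families. Transcripts of H2BC9, H2BC8 and H2BC21 lie at the right with over 1000 bases after the stem-loop, whereas H4C11 and H2BC5 have transcripts that end within 40 bases of it.

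The upstream sequences of the 3 members that were called against both controls are shown because these genes did not move in the same direction. Sequences are the 250 bases before the RefSeq start (GRCh38.p14, minus strand, 5′ to 3′), with matches on either strand in capitals. H1-2 is at chr6:26056471-26056720, H2AC25 at chr1:228457874-228458123 and H2BC12 at chr6:27146859-27147108.
H1-2: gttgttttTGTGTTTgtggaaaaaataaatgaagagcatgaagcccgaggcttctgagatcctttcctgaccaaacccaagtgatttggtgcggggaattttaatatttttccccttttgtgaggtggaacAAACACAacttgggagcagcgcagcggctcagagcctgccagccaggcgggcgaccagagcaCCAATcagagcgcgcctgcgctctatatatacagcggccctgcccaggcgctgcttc
H2AC25: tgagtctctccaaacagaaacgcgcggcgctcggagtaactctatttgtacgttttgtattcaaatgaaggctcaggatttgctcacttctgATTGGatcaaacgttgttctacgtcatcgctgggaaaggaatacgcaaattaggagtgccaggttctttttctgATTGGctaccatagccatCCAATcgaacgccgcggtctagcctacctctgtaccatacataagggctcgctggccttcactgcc
H2BC12: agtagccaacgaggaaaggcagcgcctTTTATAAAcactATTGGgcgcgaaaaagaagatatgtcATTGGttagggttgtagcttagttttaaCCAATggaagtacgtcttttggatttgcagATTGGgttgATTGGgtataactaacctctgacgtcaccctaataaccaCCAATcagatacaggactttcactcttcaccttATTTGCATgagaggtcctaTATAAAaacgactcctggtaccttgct
Shares of promoters were counted over the 250 bases before and the 50 after the start, in 27305 promoters of which 64 belong to members. The letters AAACACA, the H1 box, were in the promoters of 6 of 6 H1 genes and in 5.76% of all promoters. ATTTGCAT, the octamer bound by POU2F1, was in 14 of 18 H2B, 11 of 16 H2A and 1 of 11 H3 promoters. It was in 0 of 6 H1 and 0 of 13 H4 promoters, and in 1.80% of all promoters. Windows of neighbouring members can overlap, so the same site can be counted for both genes, as for H2AC6 and H2BC4. H3C4, the H3 gene with the octamer, has the same listed window as H2AC7. Of the sequences shown, the octamer stands in H2BC12, and H2AC25 is an H2A gene without it. CCAAT was in 54 of 64 member promoters against 35.7% of all. TATAAA was in 42 of 64 against 11.95%, and TTTCCCGC, an E2F site, in 1 of 64 against 1.66%. A match to letters is a description of the sequence and not evidence of binding.

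The overexpressed gene was checked first. The RBMXL3 libraries held 108 and 72.7 normalised reads of RBMXL3 itself, and each of the 4 controls held 0 reads, a count of 0 that allows up to 3. Recovered depth was 23080795 to 29318007 reads in the controls and lower, 17685680 and 21023355, in RBMXL3. Of the 12 seminoma markers 11 were tested, with 2 higher and 2 lower against GFP and 3 higher and 3 lower against WT, and medians of -0.12 and -0.21. Of all tested genes 10.5% were called higher and 10.4% lower against GFP, and 14.6% and 15.3% against WT (limma). KIT, a receptor tyrosine kinase, fell by 0.39 against GFP (limma adjusted p 0.015) and by 0.80 against WT (0.000159), while POU5F1, a pluripotency factor, averaged 40674 normalised reads in RBMXL3 (SD 790.4), 32458 in GFP (SD 3588) and 29559.6 in WT (SD 2969.9), with 2 libraries in each group. Fibroblast markers moved with the groups: 4 of 5 tested were called higher in RBMXL3 against WT, beside 14.6% of all tested genes. In RBMXL3 against GFP 2 of 5 were called higher and 0 lower, beside 10.5% and 10.4%. In GFP against WT 4 of 5 were called higher, beside 1.76%. The summed level of the 6 was 8528 to 9728 in WT, 12005 to 13465 in GFP and 12688 to 13521 in RBMXL3. LUM averaged 423 in RBMXL3, 155 in GFP and 72.5 in WT, while DCN, a defining marker of the type, stayed at 1.69 or less. The 5 immune markers, with CD3E at 0, summed to 74.7 to 75.9 in RBMXL3, 37.9 to 43.4 in GFP and 29.6 to 35.2 in WT. For the 6 Sertoli and Leydig markers, with CYP17A1 at 0, the sums were 180 to 211, 108 to 160 and 103 to 154. Both sums were low but highest in RBMXL3. In these lists 3 immune and 4 Sertoli and Leydig markers had under 10 reads in every library. The part of such markers in the histone values was not tested. In bulk RNA, fewer cells of a kind, such as S-phase cells, and less RNA per cell cannot be told apart.

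Histone RNA was scarce in these libraries. All 69 members together took 0.0204% to 0.0250% of the summed normalised reads of a library. No read was found in any library for 7 members, including the testis-type H2AC1 and H2BC1 and the H1 gene H1-1. The testis-type linker histone H1-6 had 3 reads in each GFP library and 0 in the other 4. Another 42 members had reads but fell under the test's minimum of 23.9 normalised reads in at least 2 libraries, and 20 members were tested. The tested members were H1-2, 5 H2A, 10 H2B, 2 H3 and 2 H4 genes.

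Levels were compared between genes per length, in TPM, the transcripts-per-million unit, summed over each gene's transcripts in GENCODE 29. Of the 251955 deposited transcripts 80.0% were in GENCODE 29, with 94.7% to 95.1% of a library's TPM. Transcripts outside it were left out, so a summed TPM can fall short of a gene's full level. H2BC12 was the most abundant member at 254 ± 52.7 TPM and H1-2 came second at 144 ± 54.99 (mean ± SD over the 6 libraries of all groups). Their ranges overlapped, with 179.7 to 324 TPM for H2BC12 and 74.3 to 211 for H1-2. H2BC5 followed at 46.3 ± 3.75 TPM and H2AC25 at 39.1 ± 11.8, and these 2 did not differ beyond their spread. The order differed by group: in RBMXL3 the mean was 207 TPM for H1-2 and 192 for H2BC12, and 53.3 for H2AC25 and 44.5 for H2BC5, with the H1-2 and H2BC12 libraries overlapping. Below them stood H4C11 at 36.3 ± 5.72, H2BC4 at 21.3 ± 4.38, H4C14 at 18.7 ± 5.46, H2AC6 at 15.6 ± 2.35 and H2BC9 at 14.2 ± 2.94, neighbours within each other's spread apart from the step between H4C11 and H2BC4. The places of H4C11 and H4C14 are uncertain, since 79.6% and 96.2% of their 75-base windows occur in other genes and they had a mean of 7.25 and 11.1 normalised reads. H2BC12 and H1-2 alone made up 53.8% to 57.0% of the summed normalised reads of all members, depending on the library.

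In the comparison of RBMXL3 with GFP, the transduced and tagged control, 5 of 20 tested members were called (limma, adjusted p under 0.05), beside 20.9% of all tested genes. H1-2 and H2AC25 were higher, and H2BC12, H2BC11 and H2BC4 were lower. In the comparison with WT 4 of 20 were called, beside 29.9% of all tested genes: H1-2 and H2AC25 higher, H2BC12 and H3C6 lower. H1-2, H2AC25 and H2BC12 were called in the same direction against both controls, 3 of 20 beside 13.7% of all genes. By direction against GFP, 2 higher stand beside 10.5% and 3 lower beside 10.4% of all genes, and against WT 2 higher beside 14.6% and 2 lower beside 15.3%. Against both controls 2 higher stand beside 6.88% and 1 lower beside 6.86%. On the recovered reads edgeR called 3 of 20 against GFP beside 19.9% of all genes, 4 against WT beside 29.1% and 2 against both beside 13.2%. DESeq2 called 3 against GFP beside 17.5%, 2 against WT beside 25.1% and 2 against both beside 11.4%. H2AC25 and H2BC12 were called against both controls by either tool. These shares are near the background, and the comparisons share the RBMXL3 libraries. The median log2 change of the 20 was -0.03 against GFP and -0.06 against WT, beside 0.00 and -0.01 for all tested genes.

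Between the controls 0 of 20 members were called in GFP against WT, beside 3.67% of all genes, 1.76% higher and 1.91% lower (limma). At an unadjusted p under 0.05 there was 1, H2AC25, and on the recovered reads edgeR and DESeq2 also called 0, beside 3.32% and 4.86% of all genes. Without GFP replicate 1 the count was 2 of 19 (H1-2 and H2AC25) beside 8.01% of all genes in that fit, and without GFP replicate 2 it was 2 of 19 (H1-2 and H2BC4) beside 19.5%. The GFP libraries differed from each other in H1-2 and H2BC4.

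**Figure D2:**
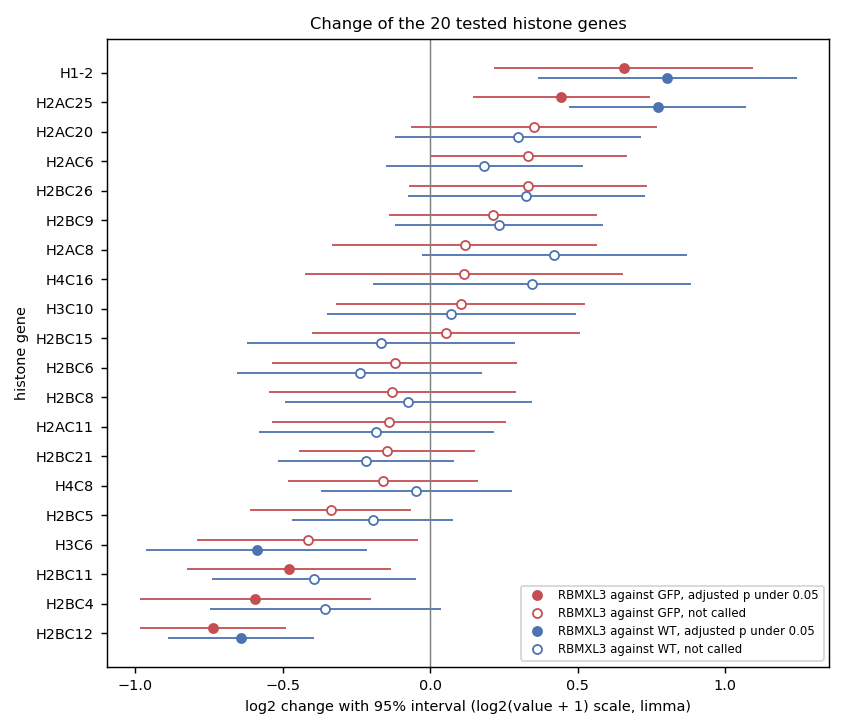
Log2 change with 95% interval (x axis, log2(value + 1) scale, limma) of the 20 tested histone genes (y axis) in RBMXL3 against GFP (red) and against WT (blue). Filled points have an adjusted p under 0.05: H1-2 and H2AC25 at the top and H2BC12 at the bottom are filled in both comparisons, and most intervals in between cross 0.

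The only tested H1 gene was H1-2 (ENSG00000187837.4; chromosome 6, 26055787 to 26056428, minus strand, 1 exon), which encodes a linker histone made in most dividing cells. Its normalised read counts were 1981 and 1968 in RBMXL3, 907 and 1705 in GFP, and 1189.6 and 1058 in WT. Both RBMXL3 libraries were above all 4 controls, and the GFP libraries were far apart. H1-2 rose by 0.66 on the log2 scale against GFP (SE 0.20, limma adjusted p 0.0373) and by 0.80 against WT (SE 0.20, adjusted p 0.0111). Against GFP the call rested on the scatter between the GFP libraries: the change was 0.21 without GFP replicate 1 and 1.102 without GFP replicate 2, and the call was lost when any 1 library other than GFP replicate 2 was left out (limma adjusted p up to 0.124). Against WT it was lost without either WT library, with adjusted p up to 0.106. DESeq2 on the recovered reads did not call H1-2 against GFP (adjusted p 0.27) or WT (0.0796), and limma on summed TPM called it against neither (0.0971 and 0.0975).

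The other H1 genes were near the detection limit and under the minimum. H1-1 had no read in any library, and H1-6 had 3 reads in each GFP library and 0 in RBMXL3 and WT. H1-3 had 11 and 16 reads in RBMXL3, 4 and 6 in GFP, and 4 and 6 in WT. H1-5 had 7 and 9 reads in RBMXL3, 6 and 4 in GFP, and 1 and 4 in WT. H1-4, named after its values were seen, had 9 and 14 reads in RBMXL3, 2 and 0 in GFP, and 3 and 0 in WT. In H1-3, H1-5 and H1-4 the RBMXL3 libraries held the highest reads although they were the shallowest libraries. No 75-base window of these 3 genes was shared with another gene. An edgeR quasi-likelihood test with its own lower filter, added after the data were seen, tested 28 members. It called 4 of 28 against GFP beside 17.1% of all genes, 6 of 28 against WT beside 25.4%, 3 of 28 against both beside 11.3% and 0 between the controls beside 2.54%. H1-4 was called against both controls (edgeR adjusted p 0.0218 against GFP and 0.0156 against WT). H1-3 was called against WT (edgeR adjusted p 0.0247) and not against GFP (0.0571), and H1-5 was under that filter too. H1-3 and H1-4 passed that filter only through the RBMXL3 libraries, where they were highest, so these calls do not add support for a rise. With so few reads no fold change is given for H1-4.

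**Figure D3:**
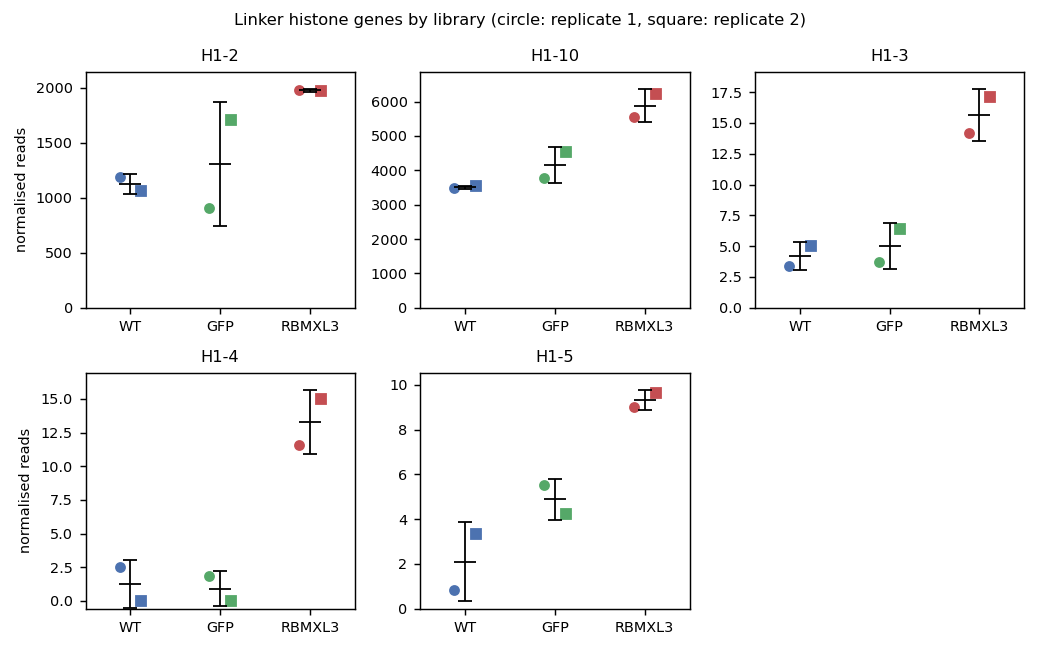
Normalised reads (y axes, own scale per panel) of 5 linker histone genes in the 2 libraries of WT, GFP and RBMXL3 (x axis), with the mean and SD as bars, which reach below 0 for H1-4. In every panel both RBMXL3 libraries stand above the 4 controls, from 5550.4 and 6216 for H1-10 down to 9.01 and 9.62 for H1-5. H1-1 and H1-6, which had no read in RBMXL3, are not shown.

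H1-10, a replication-independent linker histone, is made outside S phase from polyadenylated mRNA and was measured with more reads than any H1 member. H1-10 had 5550.4 and 6216 normalised reads in RBMXL3, 3785 and 4533 in GFP, and 3473 and 3537 in WT. Both RBMXL3 libraries were above all controls. H1-10 rose by 0.50 against GFP (SE 0.11, limma adjusted p 0.00767) and by 0.74 against WT (SE 0.11, adjusted p 0.00055). Leaving out RBMXL3 replicate 2 ended the call against GFP (0.148), and against WT the call held without any 1 library.

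Among the H2A genes, H2AC25 (ENSG00000181218.6; chromosome 1, 228456979 to 228457873, minus strand, 1 exon) lies outside the large chromosome 6 clusters. It had 644 and 576 normalised reads in RBMXL3, 385 and 505 in GFP, and 334 and 361 in WT. RBMXL3 was highest, GFP intermediate and WT lowest, with no overlap between the groups. H2AC25 rose by 0.44 against GFP (SE 0.14, limma adjusted p 0.0386) and by 0.77 against WT (SE 0.14, adjusted p 0.00172). Against WT the call held without any 1 library (0.69 to 0.85). Against GFP it held only without GFP replicate 2, where the change was 0.63, and it was 0.26 without GFP replicate 1; the highest adjusted p without 1 library was 0.276. In summed TPM it was called against WT (limma adjusted p 0.026) and not against GFP (0.0537). After quantile normalization it was likewise called against WT and not against GFP.

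H2AC6 (chromosome 6, 26124145 to 26139116, plus strand) had 306 and 282 normalised reads in RBMXL3, 193 and 270.2 in GFP, and 246 and 268 in WT. Both RBMXL3 libraries were above all controls, but the log2 change of 0.33 against GFP was not called (limma adjusted p 0.146, 95% interval -0.002 to 0.67). H2AC20 had 52.8 and 48.1 in RBMXL3, 37.0 and 31.8 in GFP, and 48.3 and 26.8 in WT, so RBMXL3 overlapped WT. Its change of 0.35 against GFP was not called (adjusted p 0.215, interval -0.06 to 0.77). The other tested H2A genes, H2AC8 and H2AC11, had changes of 0.12 and -0.14 against GFP, neither of them called.

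H2BC12 (ENSG00000197903.8; chromosome 6, 27146418 to 27146798, minus strand, 1 exon), the most abundant H2B gene, was the clearest fall. Its normalised read counts were 1017 and 1098 in RBMXL3, 1959 and 1611 in GFP, and 1748 and 1578 in WT. Both RBMXL3 libraries were well below all 4 controls, and the controls overlapped each other. H2BC12 fell by 0.74 on the log2 scale against GFP (SE 0.11, limma adjusted p 0.00148) and by 0.64 against WT (SE 0.11, adjusted p 0.0017). The calls held when any 1 library was left out, with changes of -0.88 to -0.60 against GFP and -0.71 to -0.57 against WT. In TPM it went from 324 and 273 in WT and 280.1 and 260.4 in GFP to 179.7 and 205 in RBMXL3, and on that scale it was called against WT (limma adjusted p 0.0256) but not against GFP (0.0555). Of its 75-base windows 50.5% also occur in other genes, so its count is uncertain to that degree. It was the single tested member above 50% on this measure.

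With limma on the normalised reads, the H2B genes H2BC4 and H2BC11 were called against GFP alone. After quantile normalization H2BC11 was called against both controls and H2BC4 against GFP. H2BC4 (chromosome 6, 26114873 to 26123926, minus strand) had 107 and 106 normalised reads in RBMXL3, 216 and 137 in GFP, and 149.9 and 136 in WT. Its RBMXL3 libraries were the lowest, and GFP replicate 1 stood above the other controls. H2BC4 fell by 0.59 against GFP (SE 0.18, limma adjusted p 0.0356), and its change against WT was -0.36 (adjusted p 0.155). It was kept only when GFP replicate 2 was omitted, at -0.88, and omitting GFP replicate 1 gave -0.30. In summed TPM it was not called (limma adjusted p 0.127).

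H2BC11 (chromosome 6, 27125897 to 27132750, minus strand) had 42.5 and 44.9 normalised reads in RBMXL3, 64.7 and 76.3 in GFP, and 63.5 and 66.3 in WT. Controls and RBMXL3 did not overlap. H2BC11 fell by 0.48 against GFP (SE 0.16, limma adjusted p 0.0494), close to the threshold, and its change against WT was -0.39 (adjusted p 0.0794). The call was kept only without GFP replicate 1 (adjusted p up to 0.255).

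The other abundant H2B genes were not called with limma on the normalised reads. After quantile normalization H2BC5 was called against GFP, and in summed TPM H2BC9 was. H2BC5 had 327 and 339 normalised reads in RBMXL3, 454 and 402 in GFP, and 412 and 358 in WT. Its RBMXL3 libraries were below all controls, with changes of -0.34 against GFP (limma adjusted p 0.0753, 95% interval -0.61 to -0.06) and -0.19 against WT (0.261, -0.47 to 0.08). H2BC21 had 304 and 365 in RBMXL3, 365 and 377 in GFP, and 433 and 353 in WT, groups that overlapped. Its change against GFP was -0.15 (0.483, -0.44 to 0.15). H2BC9 and H2BC26, named after their values were seen, went the other way, with RBMXL3 above all controls and uncalled changes of 0.21 and 0.33 against GFP. Of the 10 tested H2B genes 7 had a change below 0 against GFP and 8 against WT, and 4 of the 5 tested H2A genes were above 0 in each comparison. The median change of all tested genes was 0.00 against GFP and -0.01 against WT. Both comparisons share the RBMXL3 libraries, and the signs were not tested. H2BC6 and H2BC15 overlap exons on the opposite strand over 28.2% and 7.18% of their length, and none of the called members does.

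**Figure D4:**
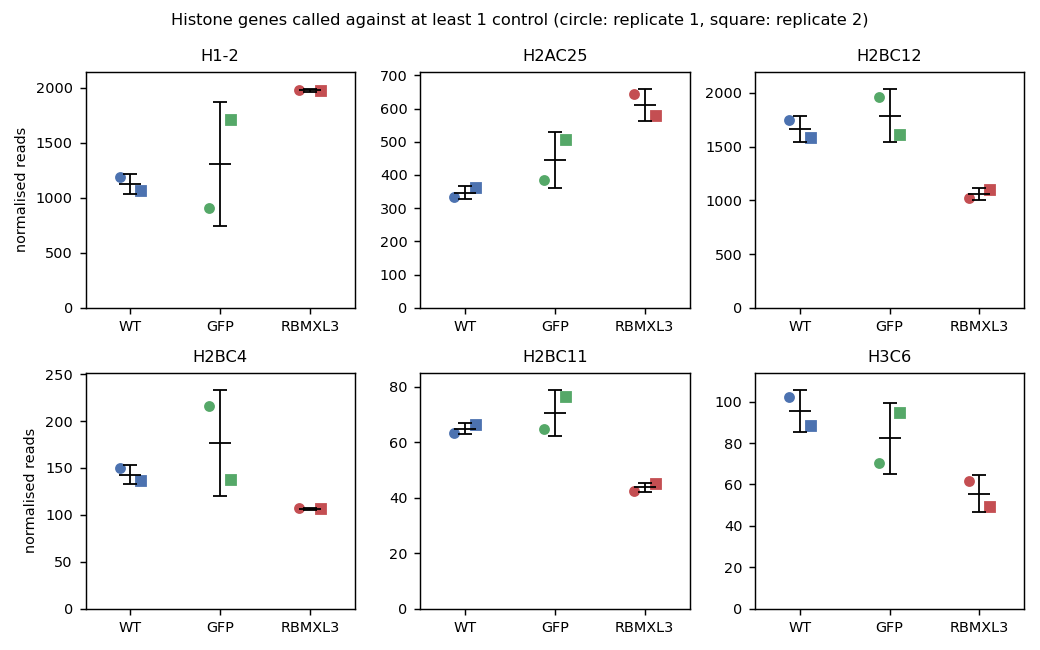
Normalised reads (y axes from 0, own scale per panel) of the 6 histone genes called against at least 1 control, in the 2 libraries of WT, GFP and RBMXL3 (x axis), with mean and SD as bars. H1-2 and H2AC25 are highest and the other 4 genes lowest in both RBMXL3 libraries, while the GFP libraries are far apart for H1-2 (907 and 1705) and H2BC4 (216 and 137).

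Few reads were assigned to H3 genes, and 2 of 13 were tested. H3C4, H3C14 and H3C15 were listed at 0 reads, but 100% of their 75-base windows also occur in other genes, so their zeros do not show that the RNA was absent. H3C6 (chromosome 6, 26224199 to 26227473, plus strand) had 61.8 and 49.2 normalised reads in RBMXL3, 70.2 and 94.3 in GFP, and 102 and 88.1 in WT. Both RBMXL3 libraries were below all controls. H3C6 fell by 0.59 against WT (SE 0.17, limma adjusted p 0.023), and its change against GFP was -0.41 (adjusted p 0.107). The WT call was lost without either WT or either RBMXL3 library (adjusted p up to 0.197), and in summed TPM the change was -0.14. H3C10 had 21.9 and 39.6 in RBMXL3, 23.1 and 29.7 in GFP, and 27.1 and 27.7 in WT, with overlapping groups. H3C8, under the minimum, had 5.15 and 7.49 in RBMXL3, 12.01 and 10.6 in GFP, and 3.39 and 5.03 in WT, so GFP was highest. In recovered reads RBMXL3, with 4 and 7, overlapped WT, with 4 and 6.

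H4 genes showed no call with limma on the normalised reads. In summed TPM 4 of 40 members were called against WT, beside 11.5% of all genes, with H4C8 among them. H4C8 was not called against GFP in that unit. H4C8 had 161 and 127 normalised reads in RBMXL3, 155 and 171 in GFP, and 147 and 150.2 in WT. The groups overlapped, and the change was -0.16 against GFP (limma adjusted p 0.481, 95% interval -0.48 to 0.16). H4C16, the member on chromosome 12, had 12.9 and 33.1 in RBMXL3, 10.2 and 28.6 in GFP, and 10.2 and 14.3 in WT. Its libraries of replicate number 2 were higher than those of number 1 in each group, and its interval against GFP, -0.42 to 0.65, leaves room for a change in either direction. H4C14, under the minimum, had 12.9 and 10.7 in RBMXL3, 10.2 and 16.95 in GFP, and 7.62 and 8.39 in WT.

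Summed over families, the directions of the abundant genes carried through, and no test was made of these sums. The H1 genes summed to 2016 and 2009 normalised reads in RBMXL3, 921 and 1718 in GFP, and 1196 and 1066 in WT, and at least 97.9% of each sum was H1-2. The H2A sum was 1084 and 1008 in RBMXL3, 709.7 and 876 in GFP, and 705 and 733 in WT. The H2B sum was 2083 and 2278 in RBMXL3, 3352 and 2829.9 in GFP, and 3062 and 2769 in WT. RBMXL3 was thus above all controls in H1 and H2A and below all controls in H2B. The log2 ratios of group means against GFP were 0.61 for H1, 0.40 for H2A and -0.50 for H2B, and against WT 0.83, 0.54 and -0.42; all 6 kept their sign in TPM and with TMM scaling. The H3 sum had ratios of -0.19 against GFP and -0.24 against WT but 0.71 and 0.53 in TPM, and the H4 sum had -0.08 against GFP but 0.09 in TPM, so no direction can be given for H3 or, against GFP, for H4. Single libraries and genes moved the sums, as leaving each out after seeing the data showed. The H1 ratio against GFP was 0.23 without GFP replicate 1 and 1.13 without GFP replicate 2, and that of H2A was 0.26 without GFP replicate 1 and 0.56 without GFP replicate 2. Without H2BC12 the H2B ratio was -0.22 against GFP and -0.16 against WT, and without H2AC25 the H2A ratio was 0.33 and 0.23.

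**Figure D5:**
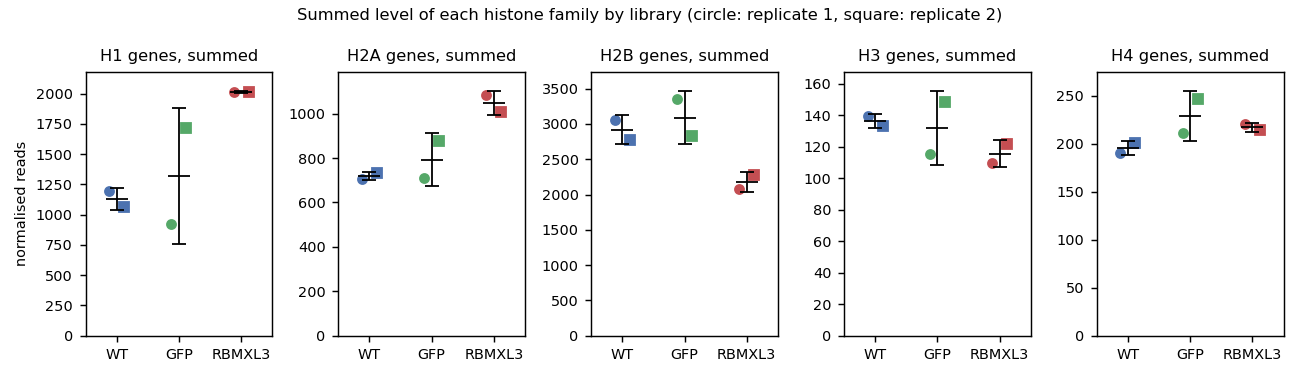
Summed normalised reads (y axes from 0, own scale per panel) of the H1, H2A, H2B, H3 and H4 genes in the 2 libraries of WT, GFP and RBMXL3 (x axis), with mean and SD as bars. Both RBMXL3 libraries are the highest for H1 and H2A and the lowest for H2B, and overlap the controls for H3 and H4.

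All 69 members together summed to 5513 and 5631 normalised reads in RBMXL3, 5309 and 5819.7 in GFP, and 5293 and 4903 in WT. RBMXL3 overlapped GFP, and both groups lay above both WT libraries, with a log2 ratio of group means of 0.00 against GFP and 0.13 against WT, the latter also found for GFP against WT. Without H2BC12, the member with the highest mean, the ratios were 0.26 and 0.39.

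Histone genes often lie head to head and share the DNA between their starts. Of 12 such pairs with at most 1000 bases between them, 11 were of an H2A with an H2B gene. The remaining pair, H3C12 with H2BC17, was counted only through an H3C12 transcript at 0 TPM that overlaps H2AC17. In 5 pairs both genes were tested, all named after their values were seen. H2BC4 and H2AC6, 218 bases apart, had log2 changes against GFP of -0.59 and 0.33. H2BC21 and H2AC20, 322 bases apart, had -0.15 and 0.35, and H2BC8 and H2AC8, 282 bases apart, had -0.13 and 0.12. H2AC25 and H2BC26, 233 bases apart, were both above 0 with 0.44 and 0.33, and H2BC11 and H2AC11, 291 bases apart, both below 0 with -0.48 and -0.14. In 3 of the 5 pairs the partners thus differed in sign, and no difference within a pair was tested.

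Counts of members whose RBMXL3 libraries lay outside all 4 controls were set against all genes. Among the 20 tested, 5 were above all controls (H1-2, H2AC6, H2AC25, H2BC9, H2BC26) beside 22.5% of tested genes, and 5 below (H2BC4, H2BC5, H2BC11, H2BC12, H3C6) beside 23.6%. Among the 37 members under the minimum with a read in at least 2 libraries, 9 were above all controls beside 11.5% of such genes, and 0 below beside 7.03%. The 9 were H1-3, H1-4, H1-5, H2AC15, H2BC3, H2BC7, H3C2, H4C5 and H4C13. A single read was worth 1.29 and 1.07 normalised reads in RBMXL3 and 0.84 to 1.06 in the controls, which lifts a low gene in RBMXL3. In recovered reads, before this scaling, 5 of the 37 were above all controls (H1-3, H1-4, H1-5, H3C2 and H4C5), or 13.5% beside 4.16% of such genes. No test was made of these counts.

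Transcripts were examined because a histone gene can make a short stem-loop transcript and longer spliced ones. GENCODE 29 lists 94 transcripts of the members, and 90 of them were in the deposited TPM table, 63 with 1 exon and 27 with more. Of the 47 tested, 0 were called in each comparison (limma on log2(TPM + 1)), beside 1.25% of all tested transcripts against GFP, 1.53% against WT and 0% between the controls. At an unadjusted p under 0.05 there were 10 against GFP, 12 against WT and 4 between the controls, or 21.3%, 25.5% and 8.51% of the 47, beside 19.1%, 18.4% and 7.97% of all tested transcripts. No count model could be run on TPM.

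H2BC5 held both kinds. Its 2-exon transcript, which does not hold the stem-loop letters, made up 50.01% and 50.9% of its TPM in RBMXL3, 52.2% and 58.4% in GFP, and 50.4% and 48.8% in WT. The rest was its single-exon transcript, which holds the letters and ends 39 bases after them. For H2BC4 the 2-exon transcript made up 46.0% and 56.5% in RBMXL3, 61.1% and 54.1% in GFP, and 52.6% and 44.8% in WT. RBMXL3 overlapped the controls in both genes. The transcripts of each gene overlap in position, so these shares depend on how reads in shared bases were assigned. Whether the short form itself was present was not tested.

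Genes of histone RNA metabolism and of S phase were described from lists. The background was the share of all genes called: 20.9% against GFP (10.5% higher, 10.4% lower) and 29.9% against WT (14.6% higher, 15.3% lower). Of 20 tested genes for histone pre-mRNA processing and transcription, 1 was higher and 3 lower against GFP, and 2 higher and 4 lower against WT, with median log2 changes of -0.01 and -0.09. SLBP had 1497 and 1455 normalised reads in RBMXL3, 1521 and 1969 in GFP, and 1869 and 1660.3 in WT. Its RBMXL3 libraries were below all controls, but its changes of -0.23 and -0.25 were not called (limma adjusted p 0.212 and 0.139). CPSF3, the endonuclease that cuts pre-mRNA 3' ends, fell by 0.60 against GFP (adjusted p 0.00284) and by 0.61 against WT (0.00151), though not against GFP without RBMXL3 replicate 2 (0.0574) and in summed TPM against neither control (0.122 and 0.0542). ZNF473, a zinc finger protein of the histone 3' end complex, fell by 0.51 (0.0107) and by 0.62 (0.00232), and not against GFP without either RBMXL3 library (up to 0.131) or against either control in summed TPM (0.639 and 0.405). NCBP1, the large cap-binding subunit, fell by 0.29 (0.0437) and by 0.44 (0.00488), and against GFP the call was lost without either WT or either RBMXL3 library (up to 0.312). Against WT it was lost without WT replicate 1 or either RBMXL3 library (up to 0.0848). POU2F1, the octamer-binding factor, rose by 0.36 against GFP (0.0281) with -0.06 against WT (0.718), and GFP itself differed from WT by -0.41. Its call was lost without either RBMXL3 library (up to 0.213). When 1 library was left out, the list's counts varied with the library, and so did the share of all genes called.

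Of 17 histone mRNA decay genes, 1 was higher and 3 lower in each comparison, with medians of -0.10 and -0.09. Against GFP these were the exonuclease XRN1 (0.47, limma adjusted p 0.0102) and LSM7 (-0.46, 0.0274), LSM2 (-0.42, 0.0124) and LSM1 (-0.35, 0.0302) of the LSM ring that binds RNA 3' ends. None of the 4 was called against WT, where their changes were -0.02, -0.09, -0.14 and -0.18. Each GFP call was lost without either RBMXL3 library, and that of LSM7 also without GFP replicate 1, where its change was -0.27. XRN1 turned to -0.45 in summed TPM. The counts of the decay list also varied with the library left out, as did the share of all genes called.

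Of 11 tested replication-independent variants 2 were higher and 0 lower against GFP, H1-10 among them. Against WT 4 were higher and 0 lower, H1-10, H3-3A (0.38, limma adjusted p 0.0102) and MACROH2A2 (0.40, 0.0126) among them. The median changes were 0.12 and 0.23. Leaving out 1 library moved the variant counts in both comparisons, and it moved the share of all genes called too. Of 14 tested histone chaperones 1 was higher and 1 lower against GFP, and 2 higher and 2 lower against WT. SUPT16H, a subunit of the FACT complex, fell by 0.48 against GFP (0.00865) and by 0.60 against WT (0.00171), and without either RBMXL3 library it was not called against GFP (up to 0.103). Summed TPM called SUPT16H against neither control (0.477 and 0.103). ATRX, which deposits H3.3 with DAXX, rose by 0.59 against GFP (0.00171) but had -0.01 against WT, and in summed TPM it had 0.013 against GFP (0.951) and -0.50 against WT (0.0355). The chaperone counts likewise varied with the library left out.

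Of 28 S phase genes 9 were called against GFP, 1 higher and 8 lower, and 11 against WT, 3 higher and 8 lower, with median log2 changes of -0.17 and -0.19. CCNE1, the G1/S cyclin, had 1272 and 1346 normalised reads in RBMXL3, 1930.4 and 2037 in GFP, and 2148 and 1824 in WT. It fell by 0.59 against each control (limma adjusted p 0.00286 and 0.00176), and the calls held without any 1 library, but in summed TPM the change against GFP was not called (0.144). PCNA, the replication clamp, had 6150.3 and 5855 in RBMXL3, 8672 and 9027 in GFP, and 7656 and 7389 in WT. PCNA fell by 0.56 against GFP (0.00219) and by 0.32 against WT (0.022). Its RBMXL3 libraries were the lowest, and the call was lost against GFP without RBMXL3 replicate 2 (0.0662) and against WT without any 1 WT or RBMXL3 library (up to 0.263). TYMS, the thymidylate synthase, fell by 0.45 against GFP (0.00591) with -0.16 against WT, and its call was lost without either RBMXL3 library (up to 0.129) and in summed TPM (-0.02). CDK2 rose by 0.44 against GFP at the threshold (0.0498) with 0.15 against WT, and its call was kept only without GFP replicate 2, at 0.70, against 0.18 without GFP replicate 1. The number of S phase genes called varied widely with the library left out, and so did the share of all genes called. In other settings the S phase count was 5 against GFP and 4 against WT with no filter on low values, beside 3.07% and 7.51% of all genes. It was 3 and 5 in summed TPM, beside 6.92% and 11.5%, and 7 against WT with quantile normalization, beside 27.7%. The counts of the other lists fell too with no filter: 1 processing, 2 decay, 0 variant and 1 chaperone gene were called against GFP, and 0 decay, 2 variant and 1 chaperone gene against WT. In summed TPM 1 processing and 0 decay genes were called against GFP, and 2 and 0 against WT. The replicate block left 2 processing genes against GFP, beside 16.7% of all genes, and quantile normalization 2 decay genes against WT. The other counts stand beside the shares given for the S phase genes in the same setting.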

How the data were processed

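Polyadenylated RNA of TCam-2 cells was sequenced in 6 libraries, 2 in each of 3 groups taken from the sample titles. The gene table, called CPM in its name, holds signal values that the authors deposited as gene read counts divided by a size factor for each library: every one of 145320 values above 0 was a whole multiple of 1 library's step (tolerance 0.001 reads, 100% whole), so whole reads were recovered. The transcript table holds TPM values as deposited, 1 value for each of 251955 transcripts. The submitters' processing notes name Trim Galore 0.6.10, STAR 2.7.11a, Salmon 1.10.2, DESeq2, GRCh38 and hg38 with no role, and the annotation and counting settings, strand included, are not given in the sources used here.

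Normalised values were divided by a common factor of 23.9, genes with at least 1 in 2 libraries were kept (23.9 normalised reads), and log2(value + 1) was fitted with limma 3.58.1 (trend) in R 4.3.3 over all 6 libraries, two-sided, with Benjamini-Hochberg adjustment over all 14292 tested genes and a threshold of 0.05. A pseudocount of 1 understates the fold of low genes. Transcripts were fitted likewise on log2(TPM + 1). The planned unit was CPM, and the test was kept. edgeR 4.0.16 and DESeq2 1.42.0 on recovered reads, other filters, scalings and units, a replicate block and leaving out each library were alternatives. The fits were tested on simulated data.

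Values by library are given for members called against both controls, the 3 highest in each family, testis-type members, up to 5 called against 1 control, and up to 4 called genes of each list; other names were chosen after their values were seen. The members and lists were chosen with earlier results of these data known. Positions and transcripts came from GENCODE 29 and promoters from RefSeq (GRCh38.p14). Of 69 members 65 matched GENCODE 29 by identifier and 64 had a promoter. The values of 1 gene of the lists are not reported here.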

Additional observations from a re-analysis of the deposited data

How the results depend on the processing

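Members called against GFP numbered 5 of 20 tested. With no filter on low values 62 members were tested and 3 called (H1-3, H1-4 and H2BC12, with 1 of the 20 among them) beside 3.07% of all genes. In summed TPM 40 were tested and 2 called (H1-4 and H2BC9, with 1 of the 20 among them) beside 6.92%. H1-4 passed the summed-TPM minimum only through the RBMXL3 libraries, with 1.16 and 1.65 TPM there and 0 to 0.253 in the controls. Its calls in that unit thus do not add support for a rise. On the 20, edgeR called 3 and DESeq2 called 3, and without 1 library 1 to 6 of the 19 or 20 tested were called, beside 4.81% to 30.3% of all genes. Against WT it was 4, with 2 by DESeq2 and 2 to 5 without 1 library beside 10.1% to 43.4% of all genes. Calls against both controls numbered 3, with 1 of 40 in summed TPM (H1-4, and 0 of the 20) beside 4.59% and 1 to 4 without 1 library beside 3.15% to 19.1%, and H2BC12 was called in each of those 6 fits. Between the controls the count was 0, and 0 to 2 without 1 library beside 0% to 19.5%. Member transcripts called were 0, and 0 to 1 without 1 library against either control. With the replicate number as a block, 3 members were called against GFP (H1-2, H2BC12 and H2BC4), 4 against WT, 2 against both and 0 between the controls, beside 16.7%, 25.9%, 11% and 1.34% of all genes. Same-numbered libraries did not deviate together (correlations of -0.16, 0.03 and -0.09 for WT with GFP, WT with RBMXL3, and GFP with RBMXL3). No pairing by number was thus seen, but the labels do not say whether same-numbered libraries were prepared together. The log2 ratio of the summed members against GFP, 0.00, was 0.12 in TPM, 0.26 without H2BC12 and -0.06 to 0.07 without 1 library. Against WT, 0.13 became 0.39 without H2BC12 and 0.07 to 0.18 without 1 library. GFP against WT turned from 0.13 to -0.045 in TPM, with 0.06 to 0.19 without 1 library. XRN1 turned to -0.45 against GFP in summed TPM (limma adjusted p 0.349). The cause of these shifts was not tested, although TPM moved the median of all genes against GFP by 0.13 and leaving out a library leaves fewer samples. The edgeR test with its own filter, TMM scaling of the sums and leaving out libraries or single genes from the sums were added after seeing the data. Depth limits members with few reads, since 46 of 69 averaged under 10.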

Other observations

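Some H4 genes had high TPM but few assigned reads. H4C14 had a mean of 18.7 TPM, which is 315 TPM for each 100 normalised reads per kilobase, and H4C11 had 36.3 TPM at 187, whereas the 20 tested members had a median of 10.3 with a range of 2.38 to 41.1. H4C15 had 10.2 TPM although its only read in the gene table was 1 in WT replicate 1. Of the 75-base windows of these genes, 96.2% in H4C14, 97.1% in H4C15 and 79.6% in H4C11 also occur in another gene, so the gene-level reads and the transcript TPM of near-identical copies cannot be set side by side.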
